A study of Mus musculus with 6 samples.

Results

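The cells described here are 568 of 34834 single cells from mouse dorsal skin that were chosen with a rule meant for mural cells, the pericytes and vascular smooth muscle cells that wrap blood vessels. A cell was kept when it held 500 or more transcript molecules (unique molecular identifiers, UMIs) of 300 or more genes and when mitochondrial genes gave no more than 10% of them. It also needed at least 2 raw UMIs summed over Rgs5, Notch3, Kcnj8, Abcc9 and Myh11, fewer than 2 over the endothelial genes Pecam1 and Cdh5, and fewer than 20 over the basal keratins Krt5 and Krt14. The members were then divided by the same genes. The Myh11 part (65 cells) held at least 2 Myh11 UMIs, and the Rgs5 part (169 cells) held no Myh11 and at least 2 UMIs over Rgs5, Kcnj8 and Abcc9. The remaining 334 cells form the Notch3 part, in which 281 cells entered on Notch3 alone. In the Myh11 part the mural label matched the levels of smooth muscle genes outside the rule. In the Rgs5 part the label matched only in part. Of the pericyte genes outside the rule, Pdgfrb, Cox4i2 and Ebf1 were detected, while Higd1b and Vtn were sparse and Colec11 had no UMI. Cytokine and fibroblast genes were among its leading genes. The 234 cells of both parts are called mural cells here by the rule. The Notch3 part carried keratinocyte transcripts and is called by its rule only.

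The skin came from male wildtype C57BL/6 mice, a common inbred strain, aged 8, 26 or 52 weeks. Untreated skin went to dissociation directly after collection, and the other skin was first held ex vivo with PBMC-sec, the secretome of gamma-irradiated peripheral blood mononuclear cells. Each of the 6 conditions was 1 droplet library that pooled 3 animals, so no condition had a replicate, and PBMC-sec and the time ex vivo cannot be told apart. Lists of 6 values go up in age from 8 to 26 to 52 weeks, and at each age the untreated library comes before the one with PBMC-sec.

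Mural cells support the wall of blood vessels. Smooth muscle cells of arterioles and venules contract through smooth muscle actin and myosin, while pericytes sit along capillaries inside a basement membrane shared with the endothelium. Pericytes are recruited by endothelial PDGF-B acting on PDGFRB, and NOTCH3 is a receptor that mural cells use to read endothelial ligands. In the epidermis Notch receptors also act in keratinocytes as they leave the basal layer.

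The genes of the contractile apparatus led the Myh11 part, and many of them are known targets of serum response factor, which binds the CArG box. Proximal promoters were read from a RefSeq table on GRCm38.p6, each covering 250 bases before to 50 bases after the start of a gene. The CArG box was searched on both strands. Of 24 contractile genes, 20 had a promoter in the table and 3 of these held a CArG box (Myl9, Vcl and Srf), against 535 of all 32851 promoters (1.63%). A match is only a description of these letters. The stretches of 120 bases around the match are shown for the regulatory myosin light chain gene Myl9 (chr2:156775274-156775393, plus strand) and the vinculin gene Vcl (chr14:20929148-20929267, plus strand), with the CArG box in capitals. It began 161 bases before the start of Myl9 and 227 bases before that of Vcl.
Myl9: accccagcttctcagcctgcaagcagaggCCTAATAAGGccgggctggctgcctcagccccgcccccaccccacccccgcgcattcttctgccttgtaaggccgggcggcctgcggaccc
Vcl: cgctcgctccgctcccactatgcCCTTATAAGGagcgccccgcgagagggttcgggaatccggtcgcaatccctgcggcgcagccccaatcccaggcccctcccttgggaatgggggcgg

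Both genes were measured in the members. Pooled over libraries, Myl9 stood at 909 counts for each 1e6 UMIs (CPM) in the Myh11 part, 2.48 in the Rgs5 part and 1.15 in the Notch3 part. Vcl stood at 301, 96.7 and 90.0 CPM in the same order, so UMIs of the smooth muscle gene were rare outside the Myh11 part and those of the broadly expressed adhesion gene were not. These levels describe sets that were chosen on related genes and were not tested.

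The 568 members were 72, 122, 82, 90, 82 and 120 cells in the 6 libraries. The Myh11 part held 4, 24, 3, 7, 12 and 15 cells, the Rgs5 part 19, 58, 13, 26, 13 and 40, and the Notch3 part 49, 40, 66, 57, 57 and 65. The libraries held 19956655 to 40211991 UMIs in all. Members shared 0 barcodes between libraries, 15 members were among the highest doublet scores, and 4 belonged to groups of barcodes whose counts differed by little more than sampling noise, most of which (3194 barcodes) lay in the 8-week untreated library. The Notch3 part was the most deeply counted, with 265077 to 1056616 UMIs per library against 25740 to 203516 in the Myh11 and Rgs5 parts together.

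**Figure D1:**
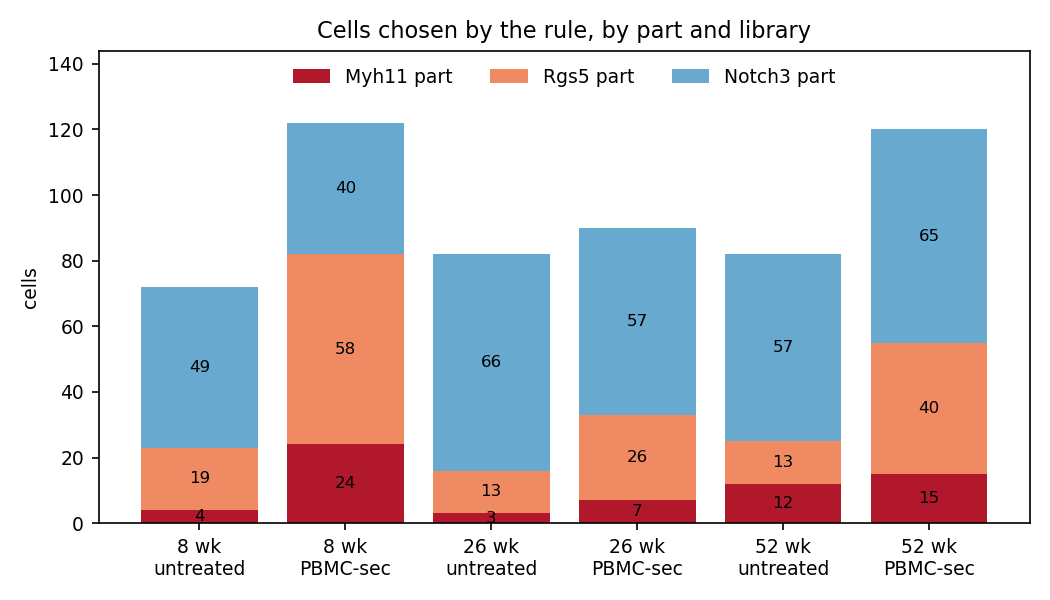
Cells chosen by the rule in each library (y axis, number of cells), stacked by the Myh11, Rgs5 and Notch3 parts. The Notch3 part is the largest segment except at 8 weeks with PBMC-sec, where the Rgs5 part has 58 cells and the Notch3 part 40.

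At the edge of the rule, 291 members had exactly 2 UMIs over the 5 genes, and 1419 cells that met every other criterion had exactly 1. Of the cells just inside, 71.1% had Notch3 as their only rule gene, and of those just outside 83.2%. Their summed level of 8 suprabasal keratinocyte markers was 52207 CPM inside and 47265 CPM outside. For mural markers that the rule did not use, the summed levels were 1105 and 1006 CPM. Both sums were slightly higher inside, and in both sets of cells the keratinocyte sum was far above the mural one. The 44 members with at least 10 UMIs had none on Notch3 alone, with 1032 CPM of suprabasal markers and 10867 CPM of mural markers.

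The same background was visible outside the members. Among keratinocytes with at least 20 UMIs of Krt5 and Krt14, whose median depth was 4257 to 9702 UMIs, 14.1% to 27.0% had a Notch3 UMI and 2.85% to 9.22% had 2 or more. In those cells 0% to 0.659% had an Rgs5 UMI and 0% to 0.353% had a Myh11 UMI. Notch3 UMIs were therefore far more common than Rgs5 or Myh11 UMIs in cells that lie outside the mural lineage.

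Smooth muscle genes defined the Myh11 part. Its leading genes against the other members were Tagln (transgelin, an actin-binding protein), Myh11 (smooth muscle myosin heavy chain), Acta2 (smooth muscle actin), Myl9 and Mylk (myosin light chain kinase). Because the cells were chosen on Myh11, these are descriptions. Myh11 stood at 7055, 3058, 1551, 1862, 920.5 and 2526 CPM. It was highest in the 8-week untreated library, where 115 of 124 Myh11 UMIs came from 1 cell.

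Acta2 (chr19:34241090-34255590, minus strand) stood at 8363, 3256, 1269, 2607, 1456 and 2389 CPM in the Myh11 part. Here too the 8-week untreated value rested on 1 cell, with 137 of 147 UMIs. Tagln (chr9:45929619-45936058, minus strand) stood at 4893, 4148, 564, 8724, 3158 and 6110 CPM. At 26 and 52 weeks its PBMC-sec value was the higher one and at 8 weeks the lower one. In the Rgs5 part Acta2 was between 0 and 96.4 CPM and Tagln between 0 and 235 CPM.

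Other muscle genes followed the same division. Pooled over libraries, Mylk was at 1089.7 CPM in the Myh11 part, 44.6 in the Rgs5 part and 4.91 in the Notch3 part. Desmin (Des), an intermediate filament of muscle, was at 706, 102 and 6.35 CPM. Calponin (Cnn1), a regulator of smooth muscle contraction, was at 180 CPM in the Myh11 part and had no UMI in the other parts. Des stood at 2162, 920.2, 0, 479, 417 and 631 CPM across the libraries of the Myh11 part, so it was undetected in the 3 cells of the 26-week untreated library.

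Skin also holds smooth muscle outside vessels, in the arrector pili muscle and the dermal sheath of hair follicles. The list for these (Itga8, Actg2, Des, Synm, Col11a1 and Synpo2) summed to 282 to 4836 CPM in the Myh11 part and to 87.4 to 322 CPM in the Rgs5 part. Itga8, an integrin subunit, was at 86.4 CPM in the Myh11 part and had no UMI in the Rgs5 part. Actg2, a smooth muscle gamma actin, was at 93.9 CPM and likewise had none in the Rgs5 part. How many of the 65 cells came from vessels and how many from these other muscles was not tested.

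The Rgs5 part was chosen on pericyte genes, whose levels describe the choice. Rgs5, a regulator of G protein signalling, stood at 1858, 1960, 1233, 2304, 1151 and 1152 CPM. The channel subunits Kcnj8 and Abcc9 form a potassium channel that is gated by ATP. Kcnj8 stood at 153, 171, 643, 96.0, 67.7 and 69.0 CPM, highest in the 26-week untreated library with its 13 cells. Abcc9 stood at 131, 161, 214, 144, 84.6 and 82.8 CPM and followed Kcnj8 in having its highest value there.

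Of the pericyte genes outside the rule, some were well detected and others sparse. Pdgfrb, the PDGF receptor of mural cells and fibroblasts, was at 175, 203, 268, 168, 220.0 and 255 CPM in the Rgs5 part, and pooled at 221 CPM against 120 in the Myh11 part and 12.4 in the Notch3 part. Cox4i2, a respiratory chain subunit, was at 275 CPM pooled and Ebf1, a transcription factor, at 275. The defining pericyte genes Higd1b and Vtn were sparse, each at 32.2 CPM pooled, and Colec11 had no UMI in any part. Cspg4, the proteoglycan NG2, was between 0 and 107 CPM in the Rgs5 part and between 51.2 and 341 CPM in the Myh11 part.

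The Rgs5 part was rich in inflammatory transcripts. Its 10 leading genes after pooling were the chemokine Cxcl5, the pentraxin Ptx3, the collagen-binding proteoglycan Dcn, the monocyte chemoattractant Ccl2, Rgs5, Csf3, Fabp4, Il11, Il6 and Saa3, of which only Rgs5 is in the pericyte identity list. The neutrophil chemoattractant Cxcl1 was at 12340 CPM in the Rgs5 part, 5881 in the Myh11 part and 699 in the Notch3 part. Ccl2 was at 6446, 669 and 235 CPM and the cytokine Il6 at 2275, 1056 and 83.7 CPM. Ccl2 varied across the libraries of the Rgs5 part, at 9069, 10366, 6595, 2424, 2505 and 5838 CPM.

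Some of these genes sat in few libraries. Cxcl5 in the Rgs5 part was at 3344, 1039, 0, 24.0, 2962 and 3754 CPM and was thus nearly undetected at 26 weeks. Ptx3 was at 153, 10.7, 0, 0, 16.9 and 1456 CPM, and so came almost wholly from the 52-week PBMC-sec library. The endothelin receptor Ednrb was steadier, at 1049, 1124, 1448, 1319.8, 609 and 807 CPM. Col4a1, a chain of the basement membrane collagen, was at 1399, 1671, 1179.6, 1752, 1218 and 1408 CPM.

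Fibroblast transcripts were also present. Dcn in the Rgs5 part stood at 1005, 493, 4129, 3359.6, 3588 and 4713 CPM, higher in all 4 libraries at 26 and 52 weeks than in both at 8 weeks. Summed over 11 fibroblast markers, the Rgs5 part stood at 1552, 1403, 6756, 4511, 6702 and 6603.5 CPM, and the fibroblast set (4996 cells, defined below) at 8299 to 14667 CPM in the same libraries. Of the 169 cells, 126 had no UMI of Pdgfra, Dcn, Lum or Col1a1 and 16 had 5 or more. In the Myh11 part 44 of 65 had none and 7 had 5 or more. The endothelial list summed to 107 to 578 CPM in the Rgs5 part, against 2718 to 6235 CPM in the endothelial set. The part of these other transcripts in the levels above was not tested.

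The Notch3 part went against the mural label. Its leading genes were Lor (loricrin) and Asprv1, which belong to the cornified layer, together with Crct1, Krt77, Cnfn, Lce1m and Krtdap. Lor stood at 8033, 20009, 7023, 3640, 13720 and 5702 CPM, and pooled at 9122 CPM against 22.5 in the Myh11 part and 37.2 in the Rgs5 part. Krtdap, a keratinocyte differentiation protein, stood at 17549, 16640, 14462, 13087, 9974 and 14887 CPM. Each of the 6 libraries therefore held these transcripts at high levels.

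Its suprabasal keratinocyte list summed to 72385, 55267, 59000, 51099, 48650.5 and 52787 CPM, while the Rgs5 part stood at 849 to 4536 CPM and the Myh11 part at 341 to 1968 CPM. Its vascular smooth muscle list summed to between 68.9 and 219 CPM. Rgs5 was at 5.55 to 67.9 CPM and Pdgfrb at 5.55 to 23.9 CPM. The pericyte list was at 577 to 1592 CPM only because it holds Ndufa4l2, which alone was at 528 to 1557 CPM. Notch3 itself stood at 213, 241, 394, 337, 168 and 125 CPM, near the 229 CPM pooled in the Myh11 part. Within these 334 cells, 27 held 1 UMI of another rule gene and 26 held 2 or more, always with fewer than 2 of Myh11.

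**Figure D2:**
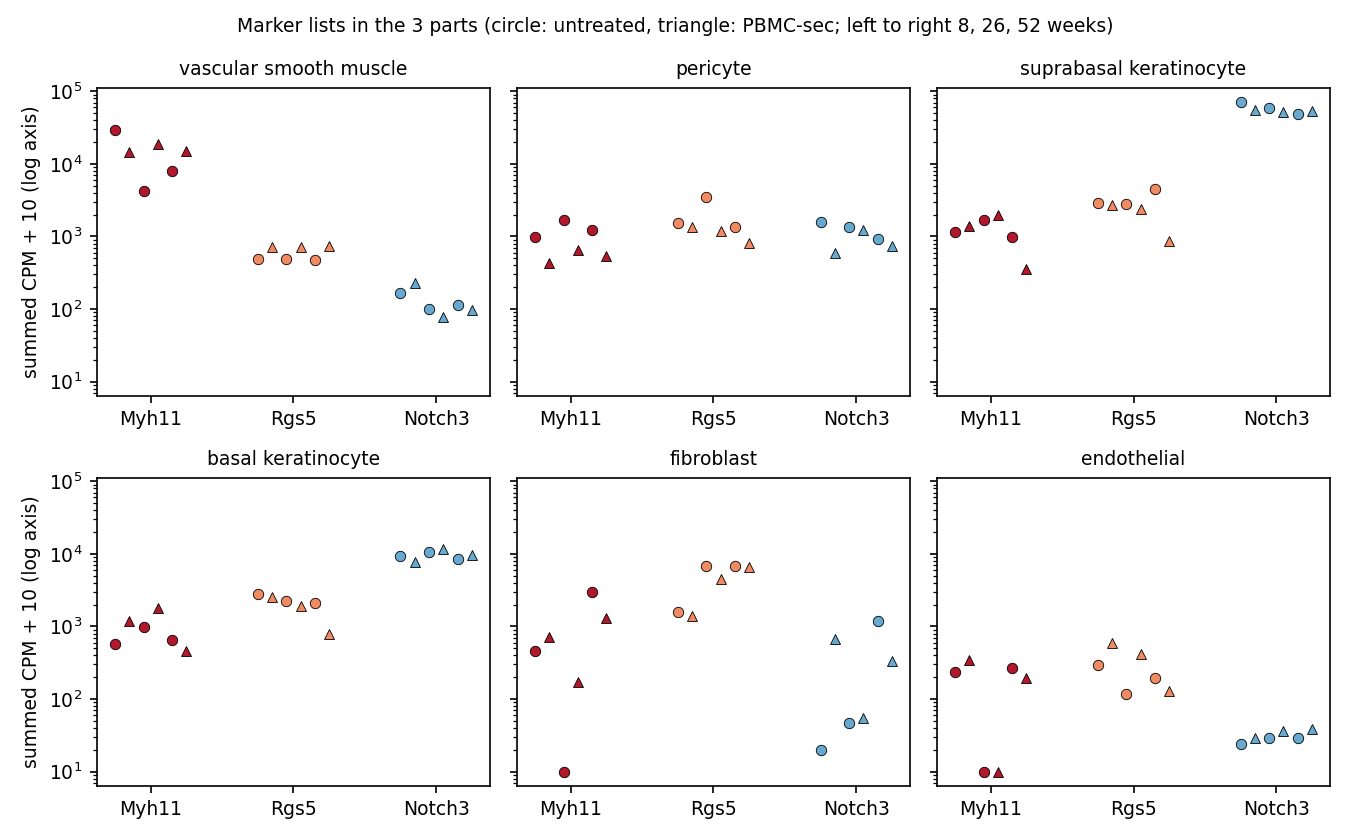
Summed level of 6 marker lists (y axis, summed CPM plus 10, log axis) in the Myh11, Rgs5 and Notch3 parts, 1 point per library. The suprabasal keratinocyte list has its lowest value in the Notch3 part at 48650.5 CPM and its highest in the other parts at 4536 CPM, and the vascular smooth muscle list is highest in the Myh11 part.

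Mural cells of the Myh11 and Rgs5 parts made up a larger share of cells in the PBMC-sec library than in the untreated library at each age. They were 0.249% of cells in 8-week untreated skin (95% exact Clopper-Pearson interval 0.158% to 0.373%) and 1.502% (1.20% to 1.86%) with PBMC-sec. At 26 weeks the shares were 0.287% (0.164% to 0.465%) and 0.557% (0.384% to 0.781%), and at 52 weeks 0.678% (0.439% to 0.9996%) and 1.11% (0.838% to 1.44%). The intervals cover counting error only, and they overlapped at 26 and 52 weeks and not at 8 weeks. The log2 ratios were 2.59, 0.96 and 0.71, with a mean of 1.42 ± 1.02 (SD, 3 ages).

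An exact two-sided sign-flip permutation test of the 3 ratios gave p = 0.25, the smallest that 3 pairs allow. Without the repeated barcodes the ratio at 8 weeks was 1.98. The rule counts raw UMIs, and the median depth of all cells kept was higher with PBMC-sec at each age. It was 1128, 2613, 2211, 3493.5, 3064 and 4804 UMIs. Among cells with at least 1000 UMIs, each thinned to 1000, the log2 ratios were 1.68, 1.32 and 0.72, with a mean of 1.24. Per 100 cells of the endothelial set there were 22.5, 74.5, 19.5, 44.6, 52.1 and 83.3 mural cells, again more with PBMC-sec at each age.

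The Notch3 part did not share this pattern. Its shares were 0.530%, 0.733%, 1.183%, 0.962%, 1.55% and 1.31%, with a mean log2 ratio of -0.02 ± 0.42 (exact permutation p = 1). All 568 members together had a mean log2 ratio of 0.56 ± 0.83 (exact permutation p = 0.25), and the endothelial set one of 0.22 ± 0.57 (exact permutation p = 0.75). The difference between these ratios was not tested. Enzymatic dissociation frees cell types to unequal extents, and its part in the shares was not tested.

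**Figure D3:**
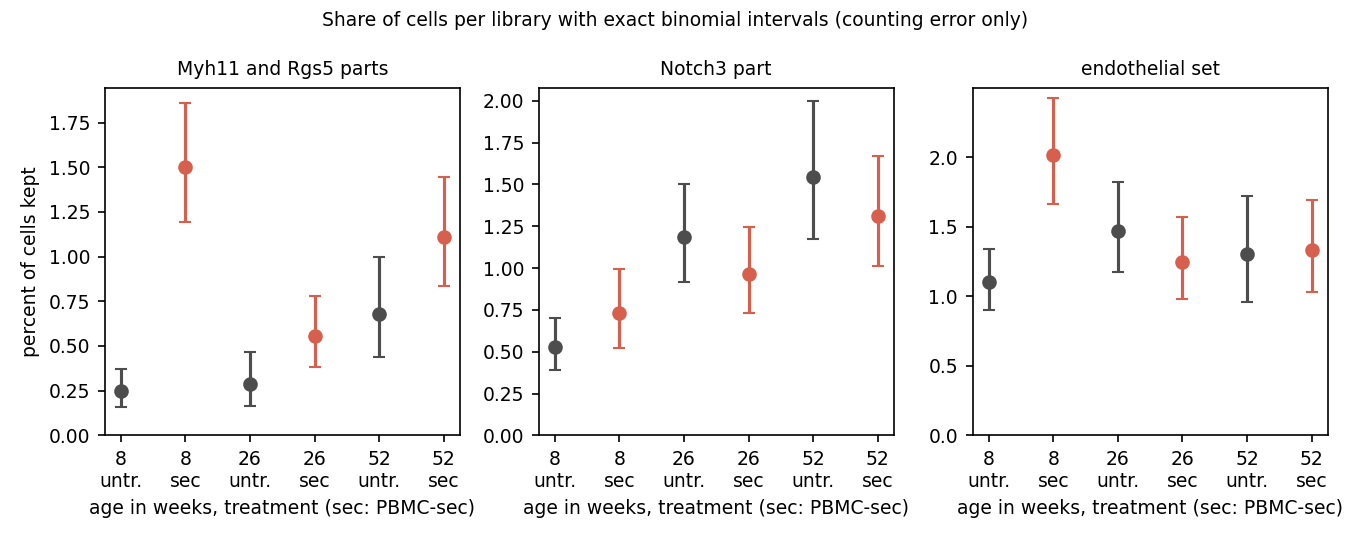
Share of cells in each library (y axis, percent of cells kept) with 95% exact binomial intervals, for the Myh11 and Rgs5 parts, the Notch3 part and the endothelial set. For the Myh11 and Rgs5 parts the PBMC-sec point lies above the untreated point at all 3 ages, with the widest gap at 8 weeks (0.249% and 1.502%).

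Gene expression was compared on UMIs summed over the cells of each library, with edgeR's quasi-likelihood test and age as a second term. With 1 library per condition the 3 ages stand in for replicates, which leaves 2 residual degrees of freedom. A p-value rests on how alike the treatment difference was at the 3 ages and on variance estimates shared over all genes tested. A very small p-value therefore does not measure the likeness of the 3 ages alone. Over all 568 members, 123 of 6046 genes (2.03%) passed an adjusted p of 0.05, 67 higher with PBMC-sec (1.11%) and 56 lower (0.926%). Of these calls, 1 was a gene of the rule, whose level describes the choice of cells. DESeq2 called 101. The Notch3 part supplied most of the UMIs. The result is therefore given for the mural parts and the Notch3 part in turn, a division made after the marker levels were seen.

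In the 234 mural cells, 2 of 2212 genes (0.0904%) passed, S100a4 higher with PBMC-sec (0.0452% of genes) and Ifit2 lower (0.0452%). DESeq2 called 0 genes, and 180 genes had an unadjusted p under 0.05. The Myh11 part held 17577 of 63335, 70635 of 164019, 7090 of 25740, 18799 of 60471, 93427 of 152516 and 58593 of 203516 mural UMIs. The mix of the Myh11 and Rgs5 parts thus differed between libraries. Its part in the treatment and age changes of the mural cells was not tested. S100a4 encodes a small calcium-binding protein of motile mesenchymal and immune cells. Its levels were 31.6, 268, 38.9, 165, 32.8 and 305 CPM, from 2, 44, 1, 10, 5 and 62 UMIs. All 3 PBMC-sec libraries lay above all 3 untreated ones, with a log2 change of 3.15 ± 0.43 (edgeR adjusted p = 0.0302). At 52 weeks with PBMC-sec 47 of its 62 UMIs were in 1 cell, and DESeq2 gave an adjusted p of 0.262. Without the 52-week pair the change was 2.76 (edgeR adjusted p = 0.0972).

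Ifit2, an RNA-binding protein induced by interferon, had 10, 1, 2, 0, 45 and 1 UMIs (158, 6.10, 77.7, 0, 295 and 4.91 CPM). It fell by 5.04 ± 0.69 on the log2 scale (edgeR adjusted p = 0.0302). All 3 untreated libraries lay above all 3 PBMC-sec libraries. In the 52-week untreated library 44 of its 45 UMIs came from 1 cell of the Myh11 part. Its DESeq2 adjusted p was 0.0520, and the gene was also common in cells outside the members relative to its level here.

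The next genes by p missed the threshold, with edgeR adjusted p-values from 0.127 to 0.264. Akr1b3, an aldose reductase, was at 78.9, 348, 38.8, 281, 32.8 and 118 CPM, higher with PBMC-sec at every age, and was common in cells outside the members relative to its level here. The heat shock chaperone gene Hspa1a was at 1042, 2036, 1282, 3555, 334 and 2378 CPM, also higher at every age (log2 change 1.88 ± 0.38, edgeR adjusted p = 0.216). The matrix protease Mmp3 was at 253, 860, 971, 1455, 662 and 2373 CPM, but in each library 1 cell held 50.9% to 100% of its UMIs. Hist1h2bc (2.55), Impdh2 (2.04) and Ccl19 (-4.59) were the others on the log2 scale, and Ccl19 was likewise common in cells outside the members.

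**Figure D4:**
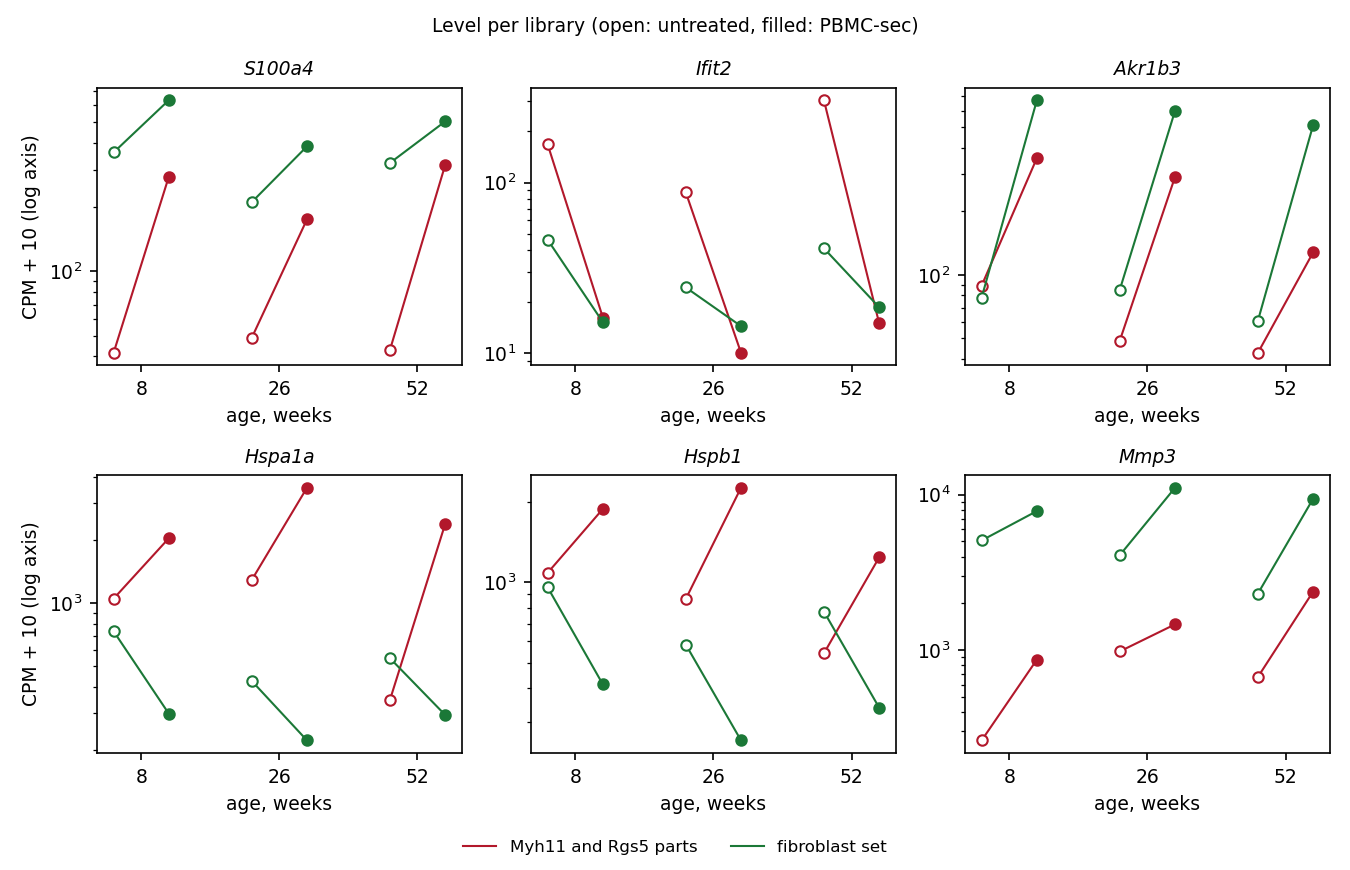
Levels of 6 genes per library (y axis, CPM plus 10, log axis) against age in weeks, in the Myh11 and Rgs5 parts and in the fibroblast set. In the mural cells S100a4 goes from 31.6 to 268 CPM at 8 weeks and from 32.8 to 305 CPM at 52 weeks, and Hspa1a is higher with PBMC-sec at each age there and lower in the fibroblast set.

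Hspa1a and Hspb1, 2 of 13 heat shock genes, were also compared by part. In the Myh11 part Hspa1a stood at 0, 3001, 846, 8192, 203 and 5786 CPM, with all PBMC-sec libraries above all untreated ones. In the Rgs5 part it stood at 1442, 1306, 1448, 1464, 542 and 1001 CPM, where the groups overlapped. UMIs of Hspa1a were found in 0 of 4, 17 of 24, 2 of 3, 6 of 7, 5 of 12 and 11 of 15 cells of the Myh11 part. In its PBMC-sec libraries 1 cell held 35.4%, 48.7% and 37.8% of the Hspa1a UMIs. For the chaperone Hspb1 all PBMC-sec libraries of the Myh11 part likewise lay above all untreated ones, at 739.6, 2931, 705, 4256, 514 and 2850.2 CPM, against 1202, 1071, 912, 1344, 558 and 573 CPM in the Rgs5 part. In the PBMC-sec libraries of the Myh11 part 1 cell held 44.4%, 60% and 51.5% of the Hspb1 UMIs. These genes were singled out after their values were seen, and the difference between the parts was not tested. The untreated libraries of the Myh11 part hold 4, 3 and 12 cells.

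Interferon-induced genes form the list with the lowest median of those named here. Of 18 genes, 16 could be tested in the mural cells, and all 16 had fitted changes below 0. Ifit2 alone passed, and the median was -1.43 beside 0.03 for all genes tested. At an unadjusted p under 0.05, 9 of the 16 were lower, beside 3.62% of all 2212 genes. Isg15, a ubiquitin-like protein, was at 1547, 305, 1049, 347, 1279 and 968 CPM (log2 change -1.27 ± 0.41, edgeR adjusted p = 0.552). The membrane protein Bst2 was at 1153, 226, 971, 49.6, 603 and 511 CPM (-1.77 ± 0.60, edgeR adjusted p = 0.552). For both genes every untreated library lay above the PBMC-sec library of its age, and the gap was smallest at 52 weeks. The same list had medians of -1.83 in the endothelial set and -1.54 in the fibroblast set.

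In the other stress and matrix lists 0 genes passed in the mural cells, beside 2 of all 2212 genes (0.0904%). At an unadjusted p under 0.05, 4.52% of all 2212 genes were higher. Of 13 heat shock genes, 6 were higher at that level, and the median was 0.50. Of 14 tested genes of the NRF2 and metal response, which answers oxidants, 0 passed and 5 were higher at an unadjusted p under 0.05, with a median of 0.49. Of 14 matrix proteases and their inhibitors 0 passed, 13 had fitted changes above 0, and the median was 0.33. Of 20 cytokines 0 passed, with a median of 0.30. The unfolded protein response (13 genes), hypoxia (11 genes) and interstitial matrix (12 genes) lists had 0 genes past the threshold and medians of -0.37, -0.48 and -0.39.

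Among the genes that serve the function of mural cells 0 passed with PBMC-sec, beside 2 of all 2212 genes (0.0904%). At so low a share a count of 0 says little about these genes. For 16 contractile genes the median was 0.17, with Tagln at 1.183 ± 0.58 (edgeR adjusted p = 0.625) and Acta2 at 0.04 ± 0.36. For 8 vasoactive receptors and signalling genes it was 0.05, with Ednrb at -0.17 ± 0.28 and the sphingosine receptor S1pr3 at -0.01 ± 0.31. For 6 pericyte identity genes it was -0.36, with Pdgfrb at 0.21 ± 0.42, Ndufa4l2 at -0.94 ± 0.30 (edgeR adjusted p = 0.552) and Cox4i2 at -0.59 ± 0.36. Ndufa4l2 stood at 742, 415, 1282, 562, 721 and 314 CPM and Cox4i2 at 284, 244, 583, 198, 315 and 206 CPM, both with the PBMC-sec library below the untreated one at every age. For 11 basement membrane genes it was -0.23, with Col4a1 at -0.05 ± 0.28. These errors are standard errors of the fit. In the Rgs5 part alone, edgeR called 0 of 1015 genes (54 at an unadjusted p under 0.05) and DESeq2 called 0.

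More genes passed in the Notch3 part. With PBMC-sec 98 of 5295 genes were higher (1.85%) and 60 lower (1.13%), together 158 (2.98%). DESeq2 called 62 as higher and 25 as lower. Akr1b3 (chr6:34302434-34317478, minus strand) was at 9.77, 1064, 19.4, 408, 21.3 and 703 CPM. It rose by 5.57 ± 0.43 on the log2 scale (edgeR adjusted p = 0.000176). Sprr1b, a precursor of the cornified envelope, was at 922, 10042, 858, 10799, 719 and 12509 CPM and rose by 3.94 ± 0.39 (edgeR adjusted p = 0.00114). For both genes the groups lay far apart in every age.

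Further cornified envelope genes rose, namely Lce3d by 3.6, Sprr2h by 2.81 and Sprr4 by 3.42 on the log2 scale, the last being higher at 2 of 3 ages. The antimicrobial peptide gene Defb1 was at 186, 687, 153, 496, 154 and 741 CPM and rose by 2.16 ± 0.29 (edgeR adjusted p = 0.00559). Pinlyp (3.62), Dnase1l2 (2.19), Gm13889 (2.19), Serpinb11 (2.17), Aspg (2.17) and the serine synthesis gene Psat1 (2.12) were the others named among those that rose. Of these, DESeq2 did not call Serpinb11 (DESeq2 adjusted p = 0.149) or Aspg (DESeq2 adjusted p = 0.194). Sprr and Lce genes are families of similar copies, and reads may be split between them.

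Adh6a, of the alcohol dehydrogenase family, had 95, 1, 32, 1, 80 and 1 UMIs and fell by 5.48 ± 0.42 on the log2 scale (edgeR adjusted p = 0.000176). The Skint genes encode epidermal membrane proteins of the immunoglobulin superfamily, and Skint9 fell by 3.87 and Skint10 by 3.12. Dapl1 was at 438, 86.8, 264, 39.8, 153 and 9.46 CPM and fell by 2.76 ± 0.32. Gadl1 (-2.82), Dapk2 (-3.10), Me2 (-3.07), Rarres1 (-2.53), Mgarp (-2.44), Nol3 (-2.30), Capns2 (-2.25) and Auts2 (-2.23) were the others named among those that fell. Of these, DESeq2 did not call Me2, Rarres1, Mgarp, Nol3 or Auts2 (DESeq2 adjusted p-values from 0.0912 to 0.167). In the mural cells Adh6a had 0 UMIs in every library.

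**Figure D5:**
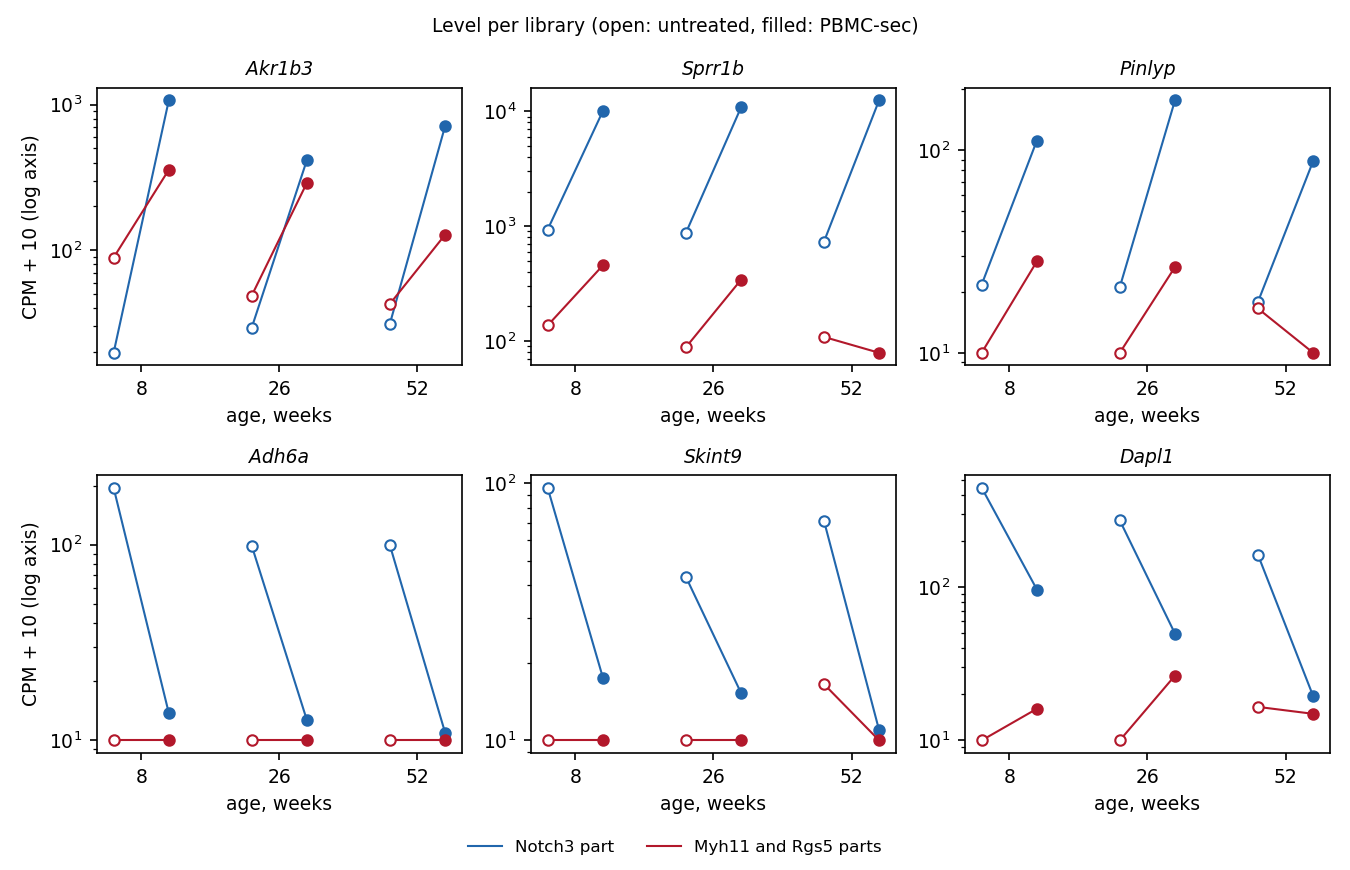
Levels of 6 genes per library (y axis, CPM plus 10, log axis) against age in weeks, in the Notch3 part and in the Myh11 and Rgs5 parts. In the Notch3 part Akr1b3, Sprr1b and Pinlyp are higher and Adh6a, Skint9 and Dapl1 lower with PBMC-sec at all 3 ages, while Adh6a has no UMI in the mural cells.

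Of all 5295 genes tested in the Notch3 part, 1.85% passed as higher and 1.13% as lower, and the list counts below stand beside these shares. In that part 5 of 16 NRF2 and metal response genes rose and 2 fell, with a median of 0.50 beside -0.01 for all genes. Of 16 cytokines 4 rose (Il6, Cxcl1, Cxcl10 and Saa3), with a median of 1.66. The proteases Mmp3, Mmp10 and Mmp13 rose among 15 genes. Of 13 heat shock genes Cryab rose while Hspa1a and Hspa1b fell. Of 158 called genes 46 were common in other cells of the libraries relative to their level here, and the part of free RNA in their counts was not tested.

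The all-member fit shared 87 of its 123 calls with the Notch3 part and was led by Akr1b3 (log2 change 4.99 ± 0.34) and Adh6a (-5.75 ± 0.41). The others among the 12 that rose most were Sprr1b, Pinlyp, Lce3d, Sprr4, Sprr2h, Chpt1, Hspb2, Tnxb, Gclc, Procr and Nqo1. Gclc (2.08), which makes glutathione, and Nqo1 (2.02), a quinone reductase, are NRF2 targets. Procr, the endothelial protein C receptor, was at 136, 939, 77.7, 446, 384 and 541 CPM and rose by 2.04 ± 0.42 (edgeR adjusted p = 0.0461). The others among the 12 that fell most were Skint9, Skint10, Dapk2, Gadl1, Dapl1, Me2, Rarres1, Capns2, Gsdmc, Emc9 and Mgarp. In the mural cells alone Procr was at 821, 1530.3, 660.5, 2149.8, 2039 and 2270.1 CPM. The share of mural cells among the members also differed between libraries, and its part in these changes was not tested.

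By age, the mural cells gave 0 of 2212 genes (0%) for 52 against 8 weeks with edgeR and 0 with DESeq2, and 140 genes at an unadjusted p under 0.05. The smallest adjusted p was 0.136, for the granulocyte growth factor Csf3, which was at 0, 36.6, 38.8, 49.6, 125 and 423 CPM. At 52 weeks 1 cell held 17 of its 19 UMIs in the untreated library and 48 of 86 with PBMC-sec. Timp1 (log2 change 3.35), a protease inhibitor, followed at 63.2, 54.9, 0, 0, 315 and 811 CPM (edgeR adjusted p = 0.184), and both genes were common in cells outside the members relative to their level here. Inhba (2.18), Mmp2 (2.40) and Ptgs2 (2.40) were higher at 52 weeks and Krt5, Krt14 and Fgfr2 lower, all with edgeR adjusted p-values of 0.258 to 0.352. Of these, Ptgs2, Krt5, Krt14 and Fgfr2 were common in other cells in the same way. The rule also capped the summed raw UMIs of Krt5 and Krt14 in each cell. Median depth of the mural cells was 2178 and 1549 UMIs at 8 weeks and 4702 and 2732 at 52 weeks (untreated, then PBMC-sec). The same cap allows a lower CPM in deeper cells. Its part in the lower Krt5 and Krt14 levels was not tested, and no age difference is read from them. In the Rgs5 part alone edgeR called 0 of 1015 genes (66 at an unadjusted p under 0.05) and DESeq2 called 5.

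Of 12 interstitial matrix genes in the mural cells 0 passed by age, and the median log2 difference was 1.41 beside 0.02 for all genes. At an unadjusted p under 0.05, 5 of them were higher, beside 3.89% of all 2212 genes as higher and 2.44% as lower. Dcn (2.40 ± 0.58, edgeR adjusted p = 0.352) and Bgn (1.71 ± 0.66) were among them, and the fibroblast markers of the Rgs5 part described above moved the same way, from 1403 to 1552 CPM at 8 weeks to 6603.5 to 6702 CPM at 52 weeks. Of 20 cytokines 0 passed, 8 had an unadjusted p under 0.05 as higher and 1 as lower, and the median was 0.83. Of 16 contractile genes 0 passed, 5 were lower at an unadjusted p under 0.05, and the median was -0.49. Acta2 (-1.18 ± 0.42, edgeR adjusted p = 0.723) was one of them, and its 8-week untreated level rested on 1 cell.

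In the Notch3 part 10 of 5295 genes (0.189%) passed by age, and over all members 13 of 6046 (0.215%). Sprr4 fell by 3.91 ± 0.48 in the Notch3 part (edgeR adjusted p = 0.0121), with 445 CPM in the 8-week PBMC-sec library and 3.36 to 31.3 CPM in the others. The carboxypeptidase gene Cpa4 rose by 3.22 ± 0.43, from 11.3 to 15.6 CPM at 8 weeks to 97.3 to 164 CPM at 52 weeks. Cd74 (5.03), 2210017I01Rik (6.24), Lce1l (12.1), Col3a1 (4.94), Fst (3.07) and Gdf15 (-2.68) were common in other cells of the same libraries relative to their level here. Over all members the haemoglobin genes Hbb-bs and Hba-a1 also passed, and they mark red blood cells.

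The PBMC-sec response of the mural cells was compared with that of 2 other cell sets of the same libraries. The endothelial set (482 cells) had at least 2 UMIs of Pecam1 and Cdh5, and the fibroblast set (4996 cells) at least 5 of Pdgfra, Dcn, Lum and Col1a1, both with fewer than 2 over the rule genes. Against fibroblasts, the response of the mural parts differed for 40 of 10080 genes (0.397%), with the difference (mural minus fibroblast) above 0 for 29 and below 0 for 11. Of these 40 genes, 24 were common in other cells relative to their level in the mural cells. The part of free RNA in their counts was not tested. Changes within a single set in these comparisons come from separate fits without the low-count filter. They can differ slightly from the filtered fits given above. Hspa1a changed by 1.96 in mural cells and by -1.03 in fibroblasts. The fitted difference between the sets was 3.06 ± 0.31 (edgeR adjusted p = 1.77e-18). As given above, the Hspa1a levels of the treatment groups lay apart in the Myh11 part and overlapped in the Rgs5 part. In the PBMC-sec libraries of the Myh11 part 1 cell held 35.4% to 48.7% of the Hspa1a UMIs. The difference from fibroblasts was not tested for either part alone. In fibroblasts Hspa1a stood at 725, 287, 416, 211, 537 and 283 CPM, lower with PBMC-sec at every age.

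Hspb1 differed by 2.56 ± 0.31 (edgeR adjusted p = 1.53e-12) and Hspa1b by 2.53 ± 0.32 (edgeR adjusted p = 3.21e-12), and these were 3 of 13 heat shock genes tested. Hspa1a and Hspa1b are near-identical copies, and their reads may be split between them. S100a4 differed by 2.41 ± 0.55 (edgeR adjusted p = 0.00492), with a change of 3.17 in mural cells and 0.85 in fibroblasts. Without the mural cells that held 5 or more fibroblast UMIs this difference was 1.15 (edgeR adjusted p = 1), while that of Hspa1a was 3.03. The polyamine enzyme gene Odc1 differed by -1.56 ± 0.34 (edgeR adjusted p = 0.00183), since it changed by -0.03 in mural cells and by 1.51 in fibroblasts. Of 18 interferon genes 0 differed, beside 0.397% of all genes tested, with a median difference of 0.01 beside 0.16 for all genes.

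Against the endothelial set the mural response differed for 35 of 4955 genes (0.706%), of which 22 were common in other cells relative to their level in the mural cells. Among genes not prone to free RNA, the largest differences were those of the collagen genes Col6a2 (5.58), Col1a1 (5.41) and Col3a1 (3.47) and of Plac8 (4.05). They came with lower values in the treated endothelial set, whose fibroblast list stood at 1977 CPM at 8 weeks and 4929 CPM at 52 weeks in untreated skin, against 183 to 463 CPM in the other libraries. Of 18 interferon genes and 13 heat shock genes 0 differed. For all members together, 47 of 7182 genes (0.654%) differed from the endothelial set and 172 of 10780 (1.6%) from fibroblasts. Of these, 19 and 66 genes were common in other cells relative to their level in the members. In the comparison of all members with fibroblasts, 4 genes had the differences furthest above 0 among genes not prone to free RNA. They were the neurotrophin receptor Ntrk2 (3.37), Aspg (3.09), the connexin Gjb6 (3.08) and the noncoding RNA Meg3 (3.00). Ntrk2, Aspg and Meg3 changed by 2.37, 1.94 and 1.84 in members and by -1.04, -1.45 and -0.64 in fibroblasts. Gjb6 changed by 0.01 in members and by -3.23 in fibroblasts, where it had only 11, 2, 31, 2, 9 and 2 UMIs. Aspg had 12, 11, 16, 0, 9 and 7 UMIs in fibroblasts, and Ntrk2 had 3, 13, 1, 11, 4 and 14 in members. The free-RNA rule was applied to the members and not to the fibroblast set. The part of free RNA in these fibroblast counts was not tested.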

How the data were processed

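The deposited matrices hold raw UMI counts of 32285 genes per barcode, from Cell Ranger 5.0.1 per the file headers. The submitters' processing notes name mm10 (GRCm38). The labels' protocols give the Chromium 3′ chemistry as version 3.1. No annotation release is named in those sources. Positions of genes come from GENCODE vM21 (GRCm38), matched on identifiers. Deposited barcodes were filtered again as the report gives.

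The members, the gene lists and the tests were chosen with earlier results of these data known. Testing the Myh11 and Rgs5 parts and the Notch3 part separately was decided after their marker levels were seen. UMI sums per library were tested with edgeR 4.0.16 (TMM scaling, filterByExpr, quasi-likelihood F test, terms for age and treatment, Benjamini-Hochberg adjustment over all genes tested). Differences between cell sets were tested on the sums of both sets with terms for library, for set by age and for set by treatment. DESeq2 1.42.0 was the second tool. Shares carry exact 95% Clopper-Pearson intervals.

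Named genes were the most abundant members of each list and up to 12 genes each way past an adjusted p of 0.05 that were not prone to free RNA, which means that their CPM in other cells was at most 5 times that in the set in each library. Where fewer than 5 passed, the 8 with the smallest p were named, and for differences up to 4 each way. For differences the free-RNA rule was applied to the members or mural cells and not to the endothelial or fibroblast set. Scrublet's own threshold called 0 doublets, so the highest scores (0.8% of cells for each 1000 barcodes) were left out as an alternative. On simulated counts with 8-fold changes the fit recovered 100% of changed genes for all members (5871 genes), 92.5% for the mural parts (2089 genes), 99.5% for the Notch3 part (5147 genes) and 45.1% for the mural difference from fibroblasts (9451 genes). False calls were 5, 5, 5 and 0 in that order. The simulation gave every gene the same dispersion and no effect of age or cell set. It therefore does not give the recovery of smaller changes or of the real counts.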

Additional observations from a re-analysis of the deposited data

Results flagged for a closer look

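The genes below were singled out because the PBMC-sec response differed between 2 cell sets by a test of the difference itself, an edgeR term on the log2 scale, with adjusted p under 0.05. For the Myh11 and Rgs5 parts against the fibroblast set these were Hspa1a (3.06), Hspb1 (2.56), Hspa1b (2.53), S100a4 (2.41) and Odc1 (-1.56). For the same parts against the endothelial set they were Col6a2 (5.58), Col1a1 (5.41), Plac8 (4.05) and Col3a1 (3.47).

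For all members against the endothelial set they were Col6a2 (6.49), Tnxb (4.79), Col3a1 (4.18), Bgn (3.29), Acp7 (-7.87), Serpina12 (-8.07), Slurp1 (-9.04) and Slurp2 (-9.89). The last 4 are epidermal genes. The endothelial set held 14269 CPM of the suprabasal keratinocyte list in the 26-week PBMC-sec library and 623 to 5573 CPM in the others. For all members against fibroblasts they were Ntrk2 (3.37), Aspg (3.09), Gjb6 (3.08), Meg3 (3.00), 2310050C09Rik (-3.64), Kctd4 (-3.65), Cpa4 (-3.72) and Kprp (-5.15). In the fibroblast set 2310050C09Rik had 48, 6, 15, 216, 5 and 936 UMIs and Kprp 5, 1, 1, 40, 2 and 334. Kctd4 had 3, 3, 2, 8, 6 and 50 UMIs there and Cpa4 1, 2, 0, 14, 1 and 42. The part of free RNA in these fibroblast counts was not tested.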

How the results depend on the processing

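No pairing by replicate number was possible because each condition had 1 library. Libraries of the same age were paired through the age term of each fit, which 1 alternative left out. The share test paired them through the ratios within each age. Precision was limited by the 3 ages and by the few UMIs of the mural cells. Counts of genes past an adjusted p of 0.05 depended on the processing, and the cause was not tested. The Myh11 part alone was not run, since 3 of its libraries held fewer than 10 cells. Alternatives for the mural parts and those that use the parts were chosen after seeing the data.

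For PBMC-sec over all members the count was 123. It was 579 with no low-count filter, 1 with at least 4 rule UMIs, 46 without cells rich in Krt1 and Krt10, 231 without the top doublet scores, 231 with cells thinned to 1500 UMIs, 38 with no age term, 0 in the Rgs5 part and 2 in the mural parts. Leaving out 1 age gave 43 (without 8 weeks) to 247 (without 26 weeks). By age the count was 13. It was 160 with no filter, 20 with DESeq2, 0 with at least 4 rule UMIs, 7 at 5% mitochondrial UMIs, 0 in the Rgs5 part, 0 in the mural parts and 93 without the 26-week pair.

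For PBMC-sec in the mural parts the count was 2. It was 41 with no filter, 6 without cells with fibroblast UMIs, and 0 with DESeq2, at least 4 rule UMIs, cells rich in Krt1 and Krt10 left out, top doublet scores left out, 5% mitochondrial UMIs, thinning or no age term. Leaving out 1 age gave 8 (without 52 weeks) to 20 (without 8 weeks). By age it was 0, and 29 with no filter, 1 with at least 4 rule UMIs and 17 without the 26-week pair.

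For all members minus endothelial cells the count was 47. It was 105 with DESeq2 size factors, 278 with no filter, 26 with DESeq2, 95 with at least 4 rule UMIs, 5 without cells rich in Krt1 and Krt10, 133 without repeated barcodes, 11 with thinning, and 28 (without 26 weeks) to 239 when 1 age was left out. For all members minus fibroblasts it was 172, against 14 with DESeq2, 108 with at least 4 rule UMIs, 308 without top doublet scores, 65 with thinning, 40 in the mural parts, and 107 (without 26 weeks) to 316 (without 8 weeks). For the mural parts minus endothelial cells it was 35, against 11 with DESeq2 size factors, 83 with no filter, 2 with DESeq2, 58 without top doublet scores, 53 without repeated barcodes, 70 at 5% mitochondrial UMIs, 4 with thinning, and 28 to 67 (without 8 weeks). For the mural parts minus fibroblasts it was 40, against 3 with DESeq2, 16 with at least 4 rule UMIs, and 12 (without 52 weeks) to 60 (without 26 weeks).

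The differences of Hspa1a and Hspb1 between the mural parts and fibroblasts kept their direction and their call under all 13 alternatives run for them, including DESeq2 (2.96 and 2.46). None of these alternatives used the Myh11 part or the Rgs5 part alone. Single genes that changed sign were Tnxb (-0.31 with at least 4 rule UMIs), Sprr2h (-0.063 in the mural parts), Acp7 minus endothelial cells (3.33 with at least 4 rule UMIs and, leaving out 1 age, -8.53 to 0.84), Slurp1 (-9.71 to 1.70) and Slurp2 (-10.6 to 2.85), and 2310050C09Rik minus fibroblasts (7.95 in the mural parts). Leaving out 1 age, the Acp7, Slurp1 and Slurp2 differences turned only without the 26-week pair, and among the alternatives run Acp7 turned also with at least 4 rule UMIs. The log2 ratios of the shares of all members and of the mural parts moved by less than their SD.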
